A study of Homo sapiens with 6 samples.

Results

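The genes described here are 10 that mark the epithelium of the colon, namely CEACAM1, CEACAM5, CEACAM6, CEACAM7, EPCAM, CDH17, VIL1, LGALS4, FABP1 and MUC13. They were chosen by name for their known roles, with earlier results of these data known, and are 10 of the 56638 gene symbols in the deposited count files. The study asked what changes in colorectal cancer cells when the long non-coding RNA lncRNA-AF339830, also called GLCC1, is silenced. RNA sequencing covered 6 libraries of 1 human colorectal cancer cell line. In 3 libraries the cells were transfected with a control siRNA, and in the other 3 with an siRNA against lncRNA-AF339830. By the labels no other allele, drug or time point separated the groups. The titles number the siRNA from 1 to 3 in both groups, whereas every genotype label carries the number 1, and whether the titles number replicates or different siRNAs is not given there. The numbers are taken as replicates here. The labels give the line as SW480, whereas the methods of the study name DLD-1, both established from colorectal adenocarcinomas. The labels do not say whether the 3 libraries of a group came from separate cultures, so each p-value measures only the spread between these libraries, which may be technical.

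The absorptive cells of the colon are held together by adhesion molecules at their lateral walls and carry a brush border of microvilli on the side that faces the gut lumen. Among the 10 genes, EPCAM and CDH17 encode lateral adhesion molecules, and VIL1 encodes an actin-bundling protein of the microvillus core. CEACAM1, CEACAM5, CEACAM6 and CEACAM7 encode immunoglobulin-type surface glycoproteins of the carcinoembryonic antigen family. MUC13 encodes a mucin anchored in the apical membrane, LGALS4 a galectin that takes part in apical sorting, and FABP1 a cytosolic carrier of fatty acids. Transcription factors of the CDX, HNF4 and GATA families are known regulators of such genes in the intestine.

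Each library held between 11948790 and 19042516 read pairs counted on genes, and the smallest was replicate 2 of GLCC1 siRNA. That library also stood apart from the other libraries of its group, with a chi-square per degree of freedom of 18.1 and 19.0 against them, whereas the other pairs of the same group lay between 1.93 and 4.16. The share of read pairs on no annotated gene was 9.82 to 10.1% in the control libraries and 10.96 to 12.7% in the GLCC1 siRNA libraries, and its part in the results was not tested. The TMM scaling factors, which correct library sizes for composition, were 0.9503 to 0.972 in control and 1.03 to 1.05 in GLCC1 siRNA libraries, so the scaling moves all fold changes downward relative to library totals. No row of the files carries the name GLCC1 or AF339830, so the silenced RNA itself could not be read. FARP1, the protein-coding gene at that locus, had 111 ± 2.13 (SD, n = 3) counts per 1000000 read pairs on genes, scaled with TMM (CPM), with control siRNA and 64.8 ± 1.32 (SD, n = 3) with GLCC1 siRNA, and fell by 0.77 on the log2 scale (SE 0.08, adjusted p = 9.21e-06 in edgeR). FARP1 does not check the labels, because the siRNA was directed at the non-coding RNA. The names given to the libraries point each group at the opposite siRNA, and under that reading every direction given here turns round. Groups follow the titles, source names and genotype labels throughout.

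Markers fit an intestinal epithelial line in part. Of 13 genes listed as markers of colon epithelium, 11 averaged 1 CPM or more, with keratins 8, 18 and 19, CDX1, CDX2, HNF4A, KLF5 and CDH1 among them, whereas KRT20 and GPA33 were below that level. Their summed level was 5934 to 6499 CPM with control siRNA and 2460 to 2816 CPM with GLCC1 siRNA. Defining markers of blood (PTPRC), endothelium (PECAM1) and fibroblasts (COL1A2, DCN and LUM) had no count in any library, but other genes of those lists did. With control siRNA these included ZEB1 at 25.8 CPM, COL1A1 at 13.4 CPM, FN1 at 11.7 CPM, PDGFRB at 4.56 CPM and CD14 at 3.29 CPM.

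The promoters of the 10 genes show where the letters known from binding sites of intestinal regulators lie. The stretches with the words named below are printed for CEACAM1, FABP1 and MUC13, the only genes with a promoter entry that held any. RefSeq promoters on GRCh38.p14 run from 250 bases before to 50 bases after a gene's start, and 7 of the 10 genes had an entry. EPCAM, CDH17 and VIL1 had none. Among the words searched on both strands were TTTATG for CDX factors, CAAAGT for HNF4 factors, AGATAA for GATA factors, and a word of GAAA, any 2 bases and GAAA for interferon-responsive elements. These words occurred in 10.6%, 11.9%, 10.3% and 3.57% of 35116 promoters of the same length, and in 1, 2, 0 and 1 of the 7 entries. Capitals mark the word, its first base is given relative to the gene's start, each stretch reads 5′ to 3′ along its gene, and all 3 genes lie on the minus strand.
CEACAM1, HNF4 word, first base at −154, chr19:42528620-42528645: ccttgattctCAAAGTgtggtctggg
CEACAM1, interferon-responsive word, first base at −116, chr19:42528578-42528607: agacagaaagGAAAGAGAAAgtaaggacaa
FABP1, CDX word on the opposite strand, first base at −89, chr2:88128136-88128161: tgaacctggcCATAAAggaatcaaca
MUC13, HNF4 word on the opposite strand, first base at −48, chr3:124934784-124934809: taatgactggACTTTGtacccgaaag
The promoters of LGALS4, CEACAM5, CEACAM6 and CEACAM7 held none of these words in this window. A match of letters is a description and says nothing about whether a factor was bound.

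In control cells the levels of the 10 genes, given as CPM per kilobase of exon, differed widely. EPCAM led with 131 ± 3.48 (SD, n = 3), higher than 98.6% of 16491 ranked genes. It was followed by LGALS4 at 62.6 ± 3.96, CDH17 at 34.6 ± 1.33, VIL1 at 29.8 ± 0.947 and MUC13 at 11.5 ± 0.641. These 5 genes thus stood in the upper part of the ranked genes, MUC13 the lowest of them at the 76.0th percentile. CEACAM1 reached 3.11 ± 0.489, CEACAM6 0.731 ± 0.197, FABP1 0.212 ± 0.120, CEACAM5 0.0973 ± 0.0125 and CEACAM7 0.0456 ± 0.0205 (SD, n = 3 each). In that order only the ranges of FABP1 and CEACAM5 overlapped between neighbours. CEACAM5, which encodes the carcinoembryonic antigen measured in the serum of patients, was thus close to the detection limit in this line. USP37, a gene on the opposite strand, shares 45.6% of the read-length windows of VIL1 exons. If read pairs from the shared stretch were not counted, the level of VIL1 is understated, and its place behind CDH17 is not certain.

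With GLCC1 siRNA the order changed at 2 places, again in CPM per kilobase. CDH17 moved up behind EPCAM at 42.8 to 53.1, and LGALS4 behind it at 31.1 to 47.5, with overlapping ranges. The range of VIL1, the next gene, was 32.6 to 37.2 and lay within that of LGALS4. FABP1, at 0.395 to 0.903, moved above CEACAM6, at 0.188 to 0.229. Exon lengths were those of GENCODE 44 on GRCh37, so a line that uses shorter transcripts would have other levels per kilobase. FABP1 has 2416 bases of exon in all but only 501 in its canonical transcript, beside 2956 and 2594 for CEACAM6. The place of FABP1 against CEACAM6 in control cells therefore depends on the length used.

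**Figure D1:**
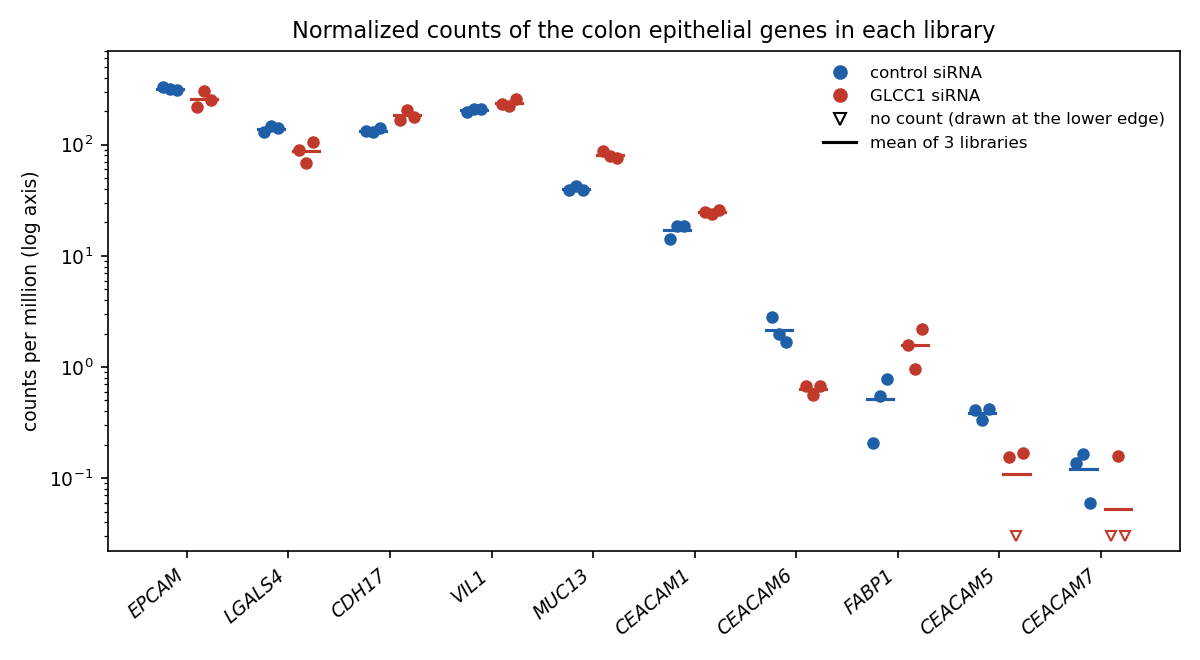
Normalized counts in CPM on a log axis for each of the 10 genes (horizontal axis), with 1 point per library, control siRNA in blue and GLCC1 siRNA in red, and a line at each mean of 3 libraries. Open triangles at the lower edge stand for libraries without a count. The red points lie above all blue points for CDH17, VIL1, MUC13, CEACAM1 and FABP1 and below them for EPCAM, LGALS4, CEACAM6 and CEACAM5.

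The comparison of GLCC1 siRNA with control siRNA asks which colon epithelial genes differ after the non-coding RNA is silenced. A gene is called when its Benjamini-Hochberg adjusted p in edgeR's quasi-likelihood test is under 0.05 over 23074 genes tested. The 10 genes did not move as a block. CEACAM1, CDH17, FABP1 and MUC13 rose, CEACAM6, EPCAM and LGALS4 fell, and CEACAM5, CEACAM7 and VIL1 did not pass. All 10 passed the filter on low counts, CEACAM7 through the control group alone. Thus 7 of 10 were called, where 31.6% of all genes tested were, 4 of them higher (14.9% of all genes) and 3 lower (16.7% of all genes). The groups did not overlap for 9 of the 10, 5 higher and 4 lower, against 46.3% of all genes tested. Calls depend on depth, and of the 6 that averaged 10 CPM or more 5 were called, beside 49.9% of 10378 genes at that level. The median log2 fold change of the 10 was −0.05, beside 0.03 over all genes tested, and their median absolute log2 fold change was 0.84. Because the libraries come from bulk RNA, fewer cells that make a transcript and less of it per cell cannot be told apart.

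**Figure D2:**
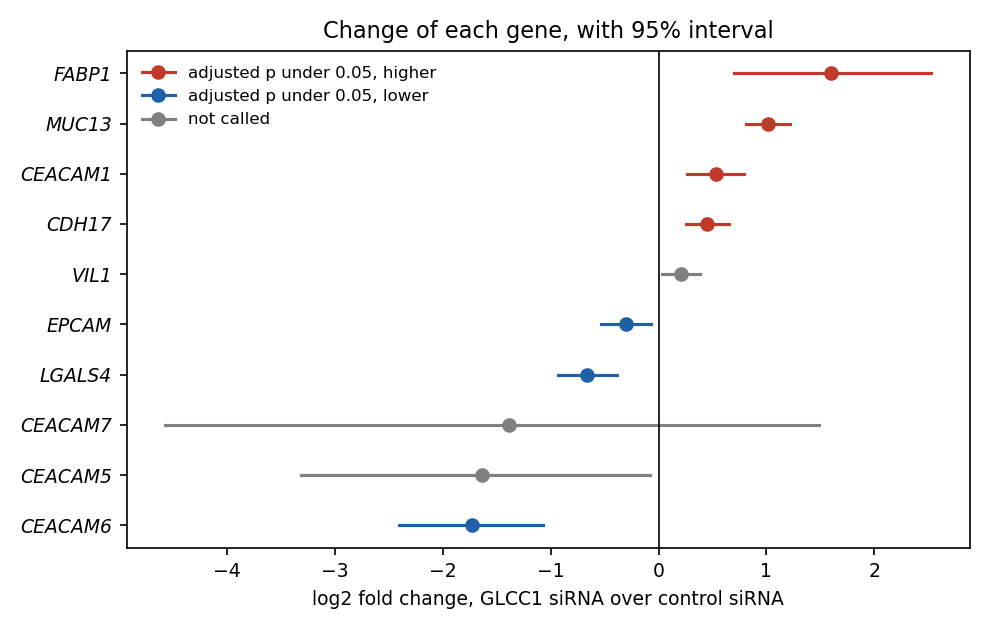
Log2 fold change of each of the 10 genes, GLCC1 siRNA over control siRNA, on the horizontal axis, with its 95% interval from edgeR as a bar. Red marks genes called higher, blue genes called lower and grey genes not called. The intervals of FABP1, MUC13, CEACAM1 and CDH17 lie above 0 and those of EPCAM, LGALS4 and CEACAM6 below it, while CEACAM7 has the widest interval, from −4.58 to 1.49. Intervals are not adjusted for the number of genes tested, and those of VIL1 and CEACAM5 also leave out 0 although neither was called.

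EPCAM, a homophilic adhesion glycoprotein of epithelial cells, lies at chr2:47572297-47614740 on the plus strand of GRCh37, with 9 exons. It had 329, 315 and 313 CPM in the control libraries and 216, 305 and 254 CPM in the GLCC1 siRNA libraries, each in the order of replicates 1, 2 and 3. The groups did not overlap, but replicate 2 of GLCC1 siRNA came close to the controls. EPCAM fell by 0.30 on the log2 scale (SE 0.11, 95% interval −0.54 to −0.07, adjusted p = 0.0454). This call was lost with DESeq2 size factors (adjusted p = 0.062), scaled by library totals alone (−0.18, adjusted p = 0.229) and with a minimum of 10 counts in every library (adjusted p = 0.082). It was also lost without each single library other than replicate 2 of GLCC1 siRNA, the highest adjusted p being 0.186 without replicate 1 of GLCC1 siRNA, where the change was −0.19. Without replicate 2 of GLCC1 siRNA the change was −0.44 (adjusted p = 2.32e-08). That fit called more genes over the whole table, 4844 higher and 5076 lower, beside 3429 and 3864 in the main fit. Calls gained in it are to be read beside these numbers.

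CDH17, the liver-intestine cadherin, which lacks the catenin-binding tail of classical cadherins, went the other way. It lies on chromosome 8 (95139390-95229531, minus strand) and has 18 exons. Its libraries held 132, 130.1 and 139.9 CPM with control siRNA and 166, 206 and 178 CPM with GLCC1 siRNA. Every GLCC1 siRNA library was above every control library, and replicate 2 was the highest. CDH17 rose by 0.45 on the log2 scale (SE 0.09, 95% interval 0.25 to 0.65, adjusted p = 0.00199), from 134 ± 5.16 to 183 ± 20.5 CPM (SD, n = 3 each). Without replicate 2 of GLCC1 siRNA the rise was 0.36.

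VIL1 encodes villin and lies at chr2:219283844-219318018 on the plus strand, with 20 exons. Its libraries held 198, 208 and 209.6 CPM with control siRNA and 231, 225 and 256 CPM with GLCC1 siRNA. The GLCC1 siRNA libraries were all higher, by a smaller margin than for CDH17. The log2 fold change was 0.21 (SE 0.08, 95% interval 0.03 to 0.38) and the adjusted p 0.0665, so VIL1 was not called. It was called in 4 of the alternatives, namely DESeq2 (0.22, adjusted p = 0.036), library totals (0.33, adjusted p = 0.00563), the minimum of 10 counts in every library (0.25, adjusted p = 0.0213) and the fit without replicate 2 of GLCC1 siRNA (0.25, adjusted p = 0.000113). USP37, a deubiquitinase gene on the opposite strand, shares 45.6% of the read-length windows of VIL1 exons. USP37 itself rose by 0.64 on the log2 scale (adjusted p = 0.000308, 38.2 to 59.8 CPM). Whether counting used strand is not given in the sources used here. It is therefore not known whether read pairs from the shared stretch were counted for VIL1 or set aside as ambiguous. USP37 was looked up after the values of VIL1 were seen.

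LGALS4 encodes galectin-4, a lectin with a pair of carbohydrate-binding domains, and lies at chr19:39292311-39303585 on the minus strand, with 10 exons. Control libraries held 129.9, 147 and 141 CPM and GLCC1 siRNA libraries 88.7, 69.1 and 106 CPM. The groups stood well apart, with replicate 2 of GLCC1 siRNA the lowest. LGALS4 fell by 0.66 on the log2 scale (SE 0.13, 95% interval −0.93 to −0.39, adjusted p = 0.00124), and by 0.52 without that library.

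MUC13 encodes a transmembrane mucin of the apical glycocalyx and lies at chr3:124624289-124672663 on the minus strand, with 12 exons. It had 39.2, 42.9 and 38.8 CPM with control siRNA and 88.2, 79.2 and 76.5 CPM with GLCC1 siRNA. The lowest GLCC1 siRNA library was far above the highest control library. MUC13 rose 2.02-fold, a log2 fold change of 1.01 (SE 0.09, 95% interval 0.81 to 1.22, adjusted p = 3.34e-06). Its change lay between 0.95 and 1.06 when each library was left out in turn.

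FABP1, the liver-type fatty acid binding protein that small-intestinal and liver cells make in quantity, lies at chr2:88422501-88427581 on the minus strand and has 4 exons. Its raw counts were 3, 10 and 13 with control siRNA and 30, 12 and 39 with GLCC1 siRNA, which is 0.206, 0.551 and 0.783 CPM against 1.56, 0.954 and 2.18 CPM. The groups did not overlap in CPM, although replicate 2 of GLCC1 siRNA had fewer counts than the third control library, which was sequenced more deeply. FABP1 rose 3.03-fold, a log2 fold change of 1.60 (SE 0.42, 95% interval 0.70 to 2.53, adjusted p = 0.01). Over the summed counts, 26 against 81, the ratio of GLCC1 siRNA to control per scaled read pair was 3.10, with an exact 95% interval of 1.97 to 5.02 that covers counting error only. Without replicate 3 of GLCC1 siRNA the log2 fold change was 1.30 and the call was lost (adjusted p = 0.0538).

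**Figure D3:**
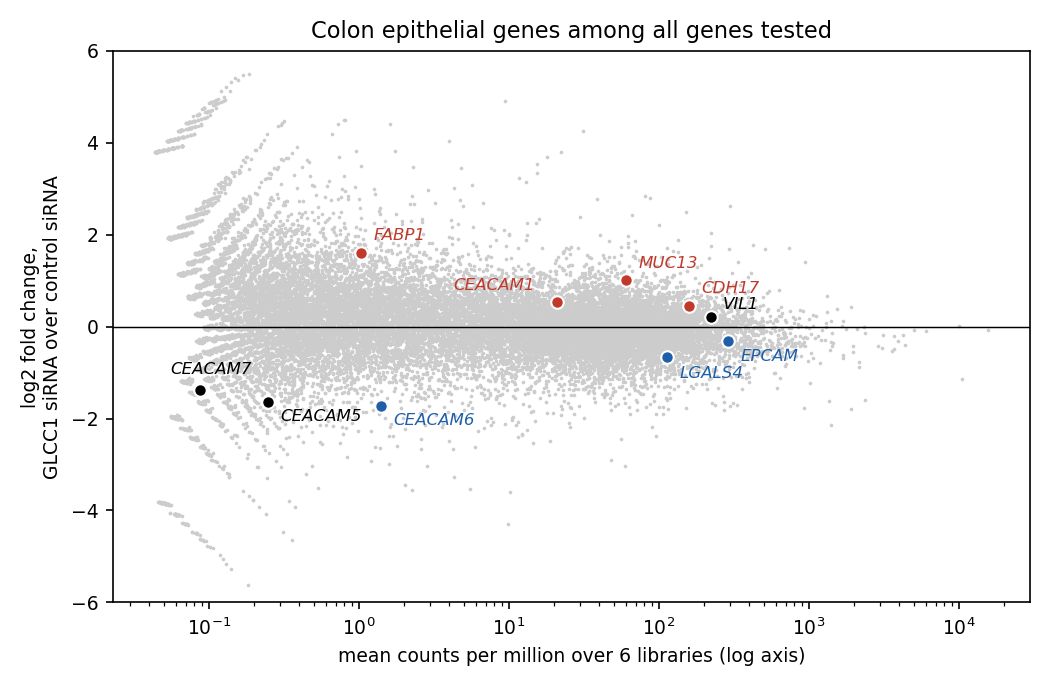
Log2 fold change, GLCC1 siRNA over control siRNA (vertical axis), against the mean CPM over 6 libraries (horizontal, log axis), with all genes tested in grey and the 10 colon epithelial genes in colour, red for called higher, blue for called lower and black for not called. CEACAM7, CEACAM5, FABP1 and CEACAM6 sit at low counts where the grey cloud is wide, whereas MUC13, CDH17, EPCAM and LGALS4 sit where it is narrow. A single gene lies beyond the drawn limit of 6 on the log2 scale.

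The 4 CEACAM genes lie on chromosome 19, with CEACAM7 (42177231-42210895, minus strand), CEACAM5 (42212504-42234353, plus strand) and CEACAM6 (42254885-42276116, plus strand) next to each other and CEACAM1 (43011456-43065386, minus strand) further along. CEACAM1 spans the membrane and carries inhibitory signalling motifs in its tail, whereas CEACAM5, CEACAM6 and CEACAM7 are held by a lipid anchor. CEACAM1 rose, CEACAM6 fell, and CEACAM5 and CEACAM7 had lower point estimates without passing the test.

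CEACAM1 had 14.1, 18.7 and 18.7 CPM with control siRNA and 24.9, 23.6 and 26.1 CPM with GLCC1 siRNA. The first control library was the lowest of all, and the groups did not overlap. The log2 fold change was 0.53 (SE 0.12, 95% interval 0.27 to 0.80, adjusted p = 0.00458), and 0.41 without that control library. LIPE-AS1, an antisense gene that overlaps CEACAM1, had 15, 10 and 15 counts with control siRNA and 29, 18 and 21 with GLCC1 siRNA (log2 fold change 0.74, adjusted p = 0.0934). Those counts are small beside the 205, 340 and 311 control counts and the 477, 297 and 466 GLCC1 siRNA counts of CEACAM1.

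CEACAM6 had 41, 36 and 28 counts with control siRNA and 13, 7 and 12 with GLCC1 siRNA, or 2.81, 1.98 and 1.69 CPM against 0.678, 0.557 and 0.671 CPM. Every control library was above every GLCC1 siRNA library. CEACAM6 fell by 1.73 on the log2 scale (SE 0.31, 95% interval −2.40 to −1.07, adjusted p = 0.000737), and its level with GLCC1 siRNA was 0.303 of that in control.

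CEACAM5 had 6, 6 and 7 counts with control siRNA and 3, 0 and 3 with GLCC1 siRNA. The count of 0 in replicate 2 allows a level of up to 0.239 CPM, at 3 counts. The groups did not overlap, and the log2 fold change was −1.64 (SE 0.75, 95% interval −3.32 to −0.08, adjusted p = 0.104). Over the summed counts, 19 against 6, the ratio of GLCC1 siRNA to control per scaled read pair was 0.314, with an exact 95% interval of 0.103 to 0.818 for counting error.

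CEACAM7, typical of mature colonocytes at the surface of the crypt, had 2, 3 and 1 counts with control siRNA and 0, 2 and 0 with GLCC1 siRNA. The groups overlapped, and no difference was detectable at this depth (log2 fold change −1.39, SE 1.41, adjusted p = 0.439). The exact permutation test over the 6 libraries gave p = 0.3, two-sided, where 0.1 is the smallest that 3 against 3 allows. The libraries without a count, replicates 1 and 3 of GLCC1 siRNA, allow up to 0.156 and 0.168 CPM, at 3 counts.

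No read-length window of the 4 CEACAM transcripts is shared with another of the 4, and 0.447% of those of CEACAM5 and 0.041% of those of CEACAM6 occur in an unnamed gene without a row in the files. The 3 lipid-anchored members were also summed, an alternative chosen after seeing the data. CEACAM5, CEACAM6 and CEACAM7 together had 130 counts with control siRNA and 40 with GLCC1 siRNA, and the sum fell by 1.71 on the log2 scale (SE 0.274, adjusted p = 0.00031). CEACAM6 makes up most of these counts. Within each library, CEACAM1 took 80.7, 88.3 and 89.6% of the counts of the 4 genes with control siRNA and 96.8, 97.1 and 96.9% with GLCC1 siRNA. The CEACAM6 share went from 11.2 ± 4.34% to 2.47 ± 0.176% (SD, n = 3 each).

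Since ratios of genes within a library do not depend on library scaling, pairs of genes that had moved in opposite directions or by different amounts were set against each other. The pairs were picked after their values were seen, so they describe the split and do not test it, and with 3 libraries a side no exact p can fall below 0.1. CDH17 had 1.02, 0.883 and 0.995 counts per count of LGALS4 with control siRNA and 1.87, 2.98 and 1.68 with GLCC1 siRNA. The ratio was higher in each GLCC1 siRNA library than in any control library. As a ratio of raw counts of transcripts of unequal length, it does not say which gene had the higher level. MUC13 had 0.119, 0.136 and 0.124 counts per count of EPCAM with control siRNA and 0.408, 0.259 and 0.302 with GLCC1 siRNA. CEACAM1 had 5.00, 9.44 and 11.1 counts per count of CEACAM6 with control siRNA and 36.7, 42.4 and 38.8 with GLCC1 siRNA. None of these ratios overlapped between the groups, and the mean ratios were 2.26, 2.55 and 4.62 times those of control. For VIL1 per count of EPCAM, the mean ratio went from 0.644 to 0.938.

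**Figure D4:**
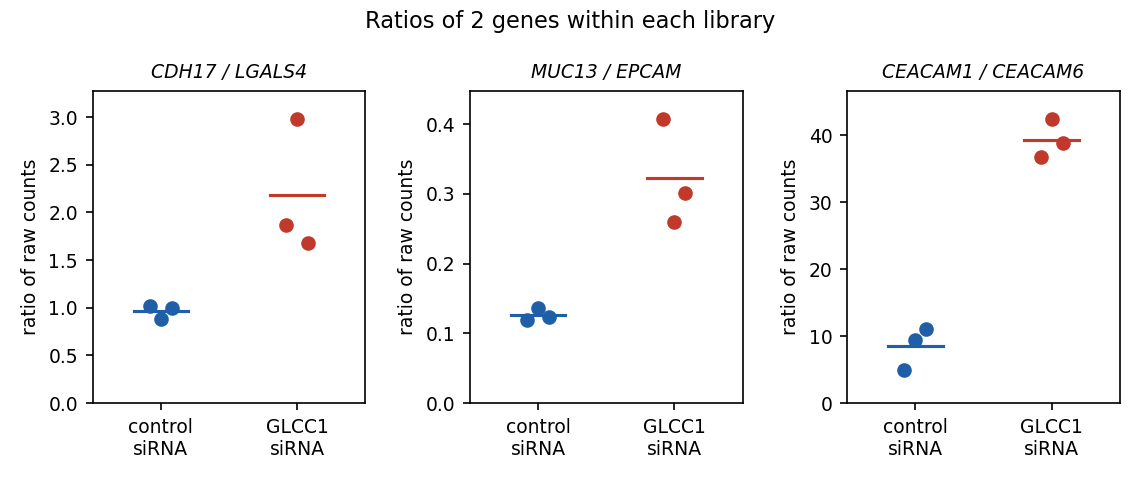
Ratios of raw counts of 2 genes within each library on a linear axis from 0, for CDH17 over LGALS4, MUC13 over EPCAM and CEACAM1 over CEACAM6, with 1 point per library and a line at each group mean. All GLCC1 siRNA points lie above all control points in the 3 panels, and replicate 2 of GLCC1 siRNA is the highest for CDH17 over LGALS4, at 2.98.

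Scaled with TMM, the total of the 10 genes stayed nearly where it was. Library totals, under which fold changes lie higher, were not applied to this sum. Their summed level was 858 ± 11.2 CPM with control siRNA and 875 ± 50.7 CPM with GLCC1 siRNA (SD, n = 3 each), and the ranges, 845 to 866 and 817 to 909.7 CPM, overlapped. EPCAM made up 36.2 to 38.9% of the sum in control libraries and 26.5 to 33.6% in GLCC1 siRNA libraries. Across the 6 libraries the genes with the pattern most like that of EPCAM, among 10376 that averaged 10 CPM or more, were RCN2 (Pearson r = 0.996), ZNF165 (r = 0.994) and FAM107B (r = 0.991). These correlations of log2 CPM hold the difference between the groups within them and are given as a description. RCN2 and ZNF165 fell by 0.32 and 0.42 on the log2 scale (adjusted p = 0.0358 and 0.0256), and FAM107B had a change of −0.24 (adjusted p = 0.104).

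Related genes were read from lists by role. The lists share some genes, among them VILL and TFF1, which fell and are counted in more than 1 list. Over all genes tested, 31.6% were called, 14.9% higher and 16.7% lower, with a median log2 fold change of 0.03, and each list is to be read beside these values. Of 15 transcription factors of the intestine, 14 were tested, 5 rose and 8 fell, and their median log2 fold change was −0.36. CDX1, a homeobox factor of the hindgut, had 39.9 CPM with control siRNA and 20.4 CPM with GLCC1 siRNA and fell by 0.96 on the log2 scale (adjusted p = 3.22e-05). Its relative CDX2, the factor most used to type colorectal tumours, had a change of −0.24 (adjusted p = 0.0547, and 0.0091 without replicate 2 of GLCC1 siRNA). Also lower were ELF3, an epithelial ETS factor (−1.18, adjusted p = 0.000141), GATA6 (−0.59, adjusted p = 0.000143), and the Krüppel-like factors KLF4 (−0.61, adjusted p = 0.000216) and KLF5 (−0.49, adjusted p = 0.000444). HNF4A, a nuclear receptor of enterocytes, fell by 0.34 (adjusted p = 0.032), a call lost with library totals (adjusted p = 0.147). GATA4 had no count in any library.

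Beside VIL1, 18 other genes of the brush border were tested, of which 4 rose and 8 fell (31.6% of all genes tested were called), with a median of −0.23 on the log2 scale. The 4 that rose, named after their values were seen, were ANKS4B (1.52, adjusted p = 0.000146) and CDHR2 (0.82, adjusted p = 0.00119), both of the adhesion complex between microvilli, and the myosins MYO7B (0.48, adjusted p = 0.0128) and MYO1D (0.33, adjusted p = 0.0052). ESPN, which encodes the bundling protein espin, fell by 1.26 (adjusted p = 9.5e-05), and VILL, a villin-like gene, fell by 1.17 (adjusted p = 1.47e-05). EPS8, a capping protein of microvillus tips, fell by 0.72 (adjusted p = 2.03e-05) and its relative EPS8L3 by 0.78 (adjusted p = 7.56e-05).

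Products of mature colonocytes and enterocytes were sparse. Of 27 genes listed, 17 were tested and 7 averaged 1 CPM or more, and 2 rose and 4 fell, with a median of −0.41. The 6 called of 17 are close to the 31.6% of all genes tested, but all 6 were among the 7 that averaged 1 CPM or more. The rest had few counts, so the share over all 17 says little about the genes with usable counts. CA2, a carbonic anhydrase, went from 110 to 48.8 CPM and fell by 1.18 on the log2 scale (adjusted p = 3.95e-07), and ALPI, the intestinal alkaline phosphatase, fell by 1.01 (adjusted p = 0.000434). In contrast, the membrane peptidase DPP4 rose by 0.50 (adjusted p = 0.000632) and the sodium-proton exchanger SLC9A3 by 0.77 (adjusted p = 0.000873). KRT20, a keratin of differentiated surface cells, had only 14, 10 and 7 counts with control siRNA and 4, 9 and 3 with GLCC1 siRNA, without a call (adjusted p = 0.25). The chloride exchanger SLC26A3 had 3, 9 and 3 counts against 0, 4 and 0 (adjusted p = 0.239). GPA33, the colon surface antigen A33, had 9, 13 and 10 counts against 21, 19 and 12 (adjusted p = 0.168). Without replicate 2 of GLCC1 siRNA, KRT20 and SLC26A3 were called lower (adjusted p = 0.0158 and 0.00319). That fit called more genes over the whole table, and in it SLC26A3 had no GLCC1 siRNA count and passed the filter through the control group alone. GUCA2B, MS4A12, SI, FABP2 and CLCA4 had no count in any library.

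Among 22 genes of goblet and other secretory cells, 15 were tested, 1 rose and 5 fell, with a median of −0.49 on the log2 scale. The 6 called of 15 are not far from the 31.6% of all genes tested, but all 6 were among the 12 that averaged 1 CPM or more. The secretory chaperone AGR2 fell by 0.90 (adjusted p = 7e-06), the trefoil peptide TFF1 by 0.79 (adjusted p = 0.00188), and the gel-forming mucins MUC5AC by 0.82 (adjusted p = 0.00218) and MUC5B by 0.59 (adjusted p = 0.00421). MUC2, the main secreted mucin of the colon, had a change of −0.73 (adjusted p = 0.0532, and 0.0491 without replicate 2 of GLCC1 siRNA), and TFF3 of −0.19 (adjusted p = 0.534). MUC5AC and MUC5B thus moved opposite to MUC13, and so did the membrane mucins MUC12 (−0.75, adjusted p = 0.012) and MUC3A (−0.67, adjusted p = 0.0147), named after their values were seen. ATOH1, AGR3 and CLCA1 had no count.

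Partners of EPCAM and other surface proteins of epithelia had 15 genes tested, none of which rose and 10 of which fell (16.7% of all genes tested fell), with a median of −0.67 on the log2 scale. The change of EPCAM itself, −0.30, was nearer to 0 than this median. CD9, a tetraspanin, fell by 1.15 (adjusted p = 7.62e-07). SPINT1, an inhibitor of membrane serine proteases, fell by 1.13 (adjusted p = 6.38e-06). CLDN3 fell by 1.35 (adjusted p = 3.11e-05) and CLDN7, a claudin that binds EPCAM, by 0.73 (adjusted p = 0.000364). ADAM17, a sheddase that cleaves EPCAM, fell by 0.67 (adjusted p = 8.16e-05), and the classical cadherin CDH1 by 0.53 (adjusted p = 0.000301), whereas CDH17 rose. The tetraspanin TSPAN8 had a change of 0.03 (adjusted p = 0.855), with −0.08 and no call without replicate 2 of GLCC1 siRNA.

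In the gene families to which the 10 genes belong, 13 further relatives of the galectins, villin, fatty acid binding proteins, cadherin and mucin were tested, 2 rose and 8 fell (31.6% of all genes tested were called), with a median of −0.67. LGALS1 and LGALS3 fell by 1.48 and 1.08 on the log2 scale (adjusted p = 3.21e-06 and 5.98e-07), as LGALS4 did. LGALS9 rose by 2.69 (adjusted p = 3.66e-06), from 14, 13 and 16 counts with control siRNA to 137, 58 and 90 with GLCC1 siRNA. Galectins thus did not move together either. Of 13 other genes of the CEACAM and pregnancy-specific glycoprotein family, 5 were tested and none was called, with a median of 0.55. Of these only CEACAM19 averaged 1 CPM or more (−0.37, adjusted p = 0.196), and CEACAM3, CEACAM4, CEACAM18, PSG2 and PSG9 had no count.

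Keratins of simple epithelia form the filament network of such cells, and KRT8, KRT18 and KRT19 were abundant here whereas KRT7 and KRT23 averaged under 1 CPM. Of 5 tested, 3 fell and none rose (16.7% of all genes tested fell), with a median of −1.34 on the log2 scale. KRT8 went from 3584 to 1177 CPM (−1.61, adjusted p = 9.51e-08), KRT18 fell by 1.82 (adjusted p = 2.18e-08) and KRT19 by 1.34 (adjusted p = 5.3e-07). Of the 13 colon epithelium markers, which these keratins dominate in level, 1 rose and 8 fell, with a median of −0.53.

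**Figure D5:**
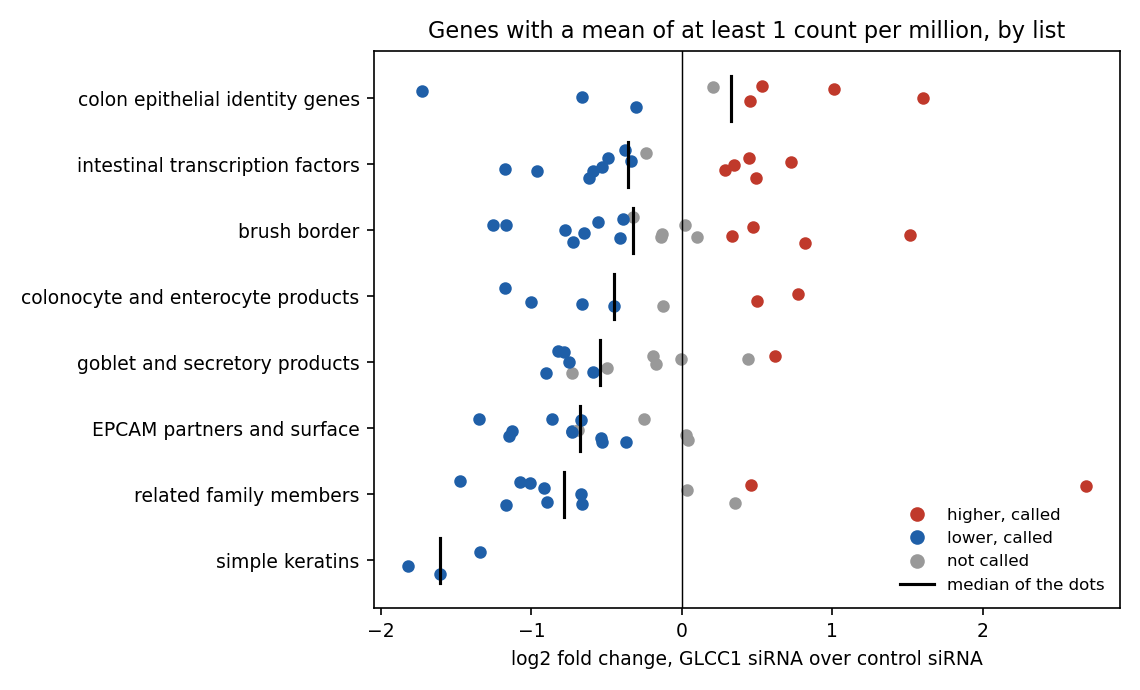
Log2 fold change, GLCC1 siRNA over control siRNA (horizontal axis), of each gene that averaged 1 CPM or more, by list (vertical axis), red for called higher, blue for called lower, grey for not called, with a black bar at the median of the dots. The colon epithelial identity genes are spread on both sides of 0, while no gene of the EPCAM partners or the simple keratins was called higher.

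Markers of other cell types moved in part with the groups. Of 13 fibroblast and mesenchymal genes, 6 were tested, 2 rose and 1 fell (31.6% of all genes tested were called), with a median of 0.48 on the log2 scale and a summed level of 57.7 to 59.8 CPM with control siRNA and 74.9 to 80.6 CPM with GLCC1 siRNA. ZEB1, a repressor of epithelial genes, rose by 0.87 (adjusted p = 2.24e-05), and SPARC, a matrix glycoprotein, by 1.24 (adjusted p = 0.00127), whereas the collagen gene COL1A1 fell by 0.86 (adjusted p = 0.000293). VIM had only 6, 6 and 6 counts against 11, 11 and 17 (adjusted p = 0.06, and 0.0377 with library totals). The part of these genes in the changes of the 10 was not tested. Of 11 blood cell genes 5 were tested and none was called, with summed levels of 3.98 to 5.36 and 3.74 to 6.83 CPM. CD14 had a change of 0.44 (adjusted p = 0.142, and 0.00585 without replicate 2 of GLCC1 siRNA). Of 7 endothelial genes 2 were tested and none was called, at 0.783 to 1.17 and 0.557 to 1.73 CPM. Of 9 liver genes, read because FABP1 is also a liver gene, 4 were tested and none was called, at 22.1 to 28.4 and 22.5 to 30.2 CPM, with SERPINA1 carrying most of the sum, ALB at 1, 0 and 2 counts against 2, 0 and 2, and APOB, TTR, FGB and FGA without a count. Of 10 genes of stomach, lung and squamous epithelia, 6 were tested, none rose and 2 fell, and the summed level was 28.7 to 36.3 CPM with control siRNA and 9.44 to 13.4 CPM with GLCC1 siRNA. KRT13, a squamous keratin, accounted for most of that, from 18.7 to 0.927 CPM (−4.30, adjusted p = 2.36e-08). The other gene that fell was TFF1, already counted among the secretory genes.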

How the data were processed

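RNA sequencing of 6 libraries is the only measurement. The authors deposited, for every gene symbol, raw counts of read pairs made from paired-end TruSeq reads mapped to hg19 with TopHat2 2.0.11 and counted with HTSeq in union mode. Replicates were not pooled. The strand setting is not given in the sources used here. HTSeq's tallies of reads on no gene were kept out of library sizes. Reads with several placements, 10.8 to 12.4% of read pairs, were not counted, which can lower genes with near copies.

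A gene was kept when either group held at least 5 counts in sum, which left 23074. Counts were scaled with TMM and compared in edgeR 4.0.16 (robust quasi-likelihood fit, R 4.3.3), with Benjamini-Hochberg adjustment. CPM are counts per 1000000 of the TMM-scaled read pairs on genes. The fit was also run on simulated counts, with means and spreads taken from these data and few changed genes. That run does not test the calls made here. Positions and lengths are from GENCODE 44 on GRCh37, with lengths for 33872 symbols. The exact intervals over summed counts and the floors cover counting error only, whereas the intervals from edgeR also hold the spread between libraries.

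The 10 genes and all lists were chosen with earlier results of these data known. Outside the 10, genes were named by rule, as the 4 lowest adjusted p of each list with a mean of at least 1 CPM plus fixed marker genes, with exceptions stated. Some genes of these lists, and a promoter word, are not reported here. Alternatives were DESeq2 1.42.0, its size factors, library totals, other filters, a replicate block, the grouping by library names, and leaving out each library. Same-numbered libraries did not deviate together (correlations −0.288 to −0.0081), so the main fit has no block.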

Additional observations from a re-analysis of the deposited data

How the results depend on the processing

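Among the 10 genes, MUC13, CDH17, CEACAM1 and LGALS4 kept their call in every alternative other than the library names, and CEACAM6 did where it was tested. EPCAM was lost with DESeq2 size factors (−0.29), library totals (−0.18) and a minimum of 10 counts in every library (−0.27), and ranged from −0.44 to −0.19 when each library was left out. VIL1 was gained with DESeq2 (0.22), library totals (0.33) and the minimum of 10 counts (0.25), and ranged from 0.15 to 0.25 over the libraries left out. FABP1 ranged from 1.265 to 2.005 and was lost without replicate 3 of GLCC1 siRNA (1.30). The minimum of 10 counts leaves 6 of the 10 genes, of which 1 was called lower and whose median was 0.37. The median of the 10 was 0.0745 with library totals and −0.0931 to 0.22 over the libraries left out, and its sign is therefore not fixed. Library totals moved the median of all genes from 0.03 to 0.15 and the calls from 3429 higher and 3864 lower (47.0% higher) to 4735 and 2797 (62.9% higher). The replicate block left 4 of the 10 genes called higher and 3 lower and changed no call among them. The conditions of the library names turn every value round, to −0.53 for CEACAM1, 1.64 for CEACAM5, 1.73 for CEACAM6, 1.39 for CEACAM7, 0.30 for EPCAM, −0.45 for CDH17, −0.21 for VIL1, 0.66 for LGALS4, −1.60 for FABP1 and −1.01 for MUC13, with a median of 0.0477, and the calls in the other lists from 16 higher and 47 lower to 47 higher and 16 lower. The cause of the lost and gained calls was not tested. Depth limits CEACAM5 and CEACAM7, at 7 counts or fewer in every library.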
